A study of Mus musculus with 15 samples.

Results

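T cell receptor alpha chains whose hypervariable loop ends in the residues MGYKLT, the end that the joining segment TRAJ9 gives to the loop, were followed through 3 populations of mouse CD8+ T cells. All peptides ending in these 6 residues were taken from the lists of CDR3 peptides of the 15 libraries, whatever their read count. There were 2045 such peptides among 92219 distinct CDR3s, 1597 of them listed in Naive cells, 626 in memory-phenotype (MP) cells and 99 in tumours. Peptides are given as listed, that is, without the conserved residues that border the loop, and the values are reads per peptide. The name TRAJ9 for this end comes from general knowledge of mouse joining segments and was not checked against a reference sequence. In the RefSeq gene table of the GRCm38.p6 assembly, Traj9 lies between Traj11 and the pseudogene Traj8, at position 9 from the 3′ side of 60 Traj segments.

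All mice were C57BL/6 males with the transgene TCRbtg, a fixed T cell receptor beta chain, so that the receptors of different cells were told apart by the alpha chain. Both subsets were CD8b+ and CD4neg, Naive cells being CD44lo and CD122neg and MP cells CD44hi and CD122+, and both came from pooled spleen and lymph nodes at 9 weeks of age, with 5 libraries each. The 5 Tumour libraries came from CD8b+ CD4neg cells, sorted without CD44 or CD122, of prostate tumours in TCRbtg TRAMP+/- males aged 27 weeks. TRAMP is a transgenic model in which viral T antigens are driven in the prostate epithelium by a probasin promoter. Tissue, age, genotype and sort gate all differ between the tumours and the other groups, and their parts cannot be told apart. The study is titled for self-specific MP cells and their thymic precursors, and the comparisons ask how the alpha chains differ between the subsets and which are found in tumours.

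An alpha chain is made in the thymus when a V segment is cut and joined to a J segment, with bases trimmed and added at the junction. The CDR3 spans that junction: its first residues come from the V segment, its last from the J segment, and those between from the trimmed and added bases. This loop lies over the peptide held by an MHC molecule, so its length and its central residues bear on what a receptor can bind. Because loops with 1 J segment share their end, the members of this group differ in the V segment, the junction and the loop length. TRAJ9 lies toward the 3′ side of the J cluster, the side that is joined late as rearrangement moves along the locus.

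The CDR3s with most reads in the libraries of each group are shown first, since the results below turn on them. They share the last 6 residues, so the differences are in the residues to the left.
Naive, most abundant in libraries 2 to 5: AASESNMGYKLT
Naive, most abundant in library 1: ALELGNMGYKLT
Naive, next in mean share: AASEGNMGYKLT
MP, most abundant in libraries 2 to 5: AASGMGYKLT
MP, most abundant in library 1: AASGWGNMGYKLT
MP, shortest loop, with A alone before the end: AMGYKLT
Tumour 1, most abundant: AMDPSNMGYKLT
Tumour 2, most abundant: ATDAGHMGYKLT
Tumour 3, most abundant: AGSNMGYKLT
Tumour 4, most abundant: ATASSNMGYKLT
Tumour 5, most abundant: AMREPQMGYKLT

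Total reads ran from 547665 to 702663 in Naive, from 574484 to 881988 in MP and from 627205 to 943699 in Tumour libraries. All lists started at 2 reads, and 3 reads in a library, the level below which a CDR3 can be missed, were 0.000318 to 0.000548% of its reads. The files hold receptor peptides and no marker transcripts, so the sorted cell types could be looked at only through the invariant receptors of other T cells. The invariant NKT CDR3 had at most 5 reads in any library. The MAIT pattern had 81 to 152 reads in Naive, 0 to 38 in MP and 0 to 60 in Tumour libraries, and neither ends in MGYKLT. MP 1 and MP 5 stood apart from the other MP libraries by holding many more distinct CDR3s, and Tumour 4 stood apart by 1 CDR3. The test of the end in MP against Naive and the counts of called CDR3s are also given without MP 1 and MP 5. The tumour share and the tests of the end in tumours are also given without Tumour 4. Group values for similarity, recurrence, residues and length are given with all libraries only. Reads cannot tell fewer cells with a receptor from less receptor RNA per cell, and the number of cells sorted is not given in the sources used here.

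TRAJ9-end CDR3s took a steady share of reads in Naive cells and a smaller one in MP cells. That share of reads was 1.63, 1.54, 1.50, 1.51 and 1.54% in Naive libraries 1 to 5, and 1.34, 1.04, 1.21, 1.02 and 1.06% in MP libraries 1 to 5. Every MP library lay below every Naive library. The means were 1.55% ± 0.0527 (SD, n = 5) in Naive and 1.13% ± 0.137 (SD, n = 5) in MP. In a table of all 6-residue ends, the MGYKLT end fell by 0.45 ± 0.12 (SE) on the log2 scale in MP against Naive, with an edgeR adjusted p of 0.00382. Of the 109 ends tested, 42.2% were higher and 24.8% lower in MP, that is 46 and 27, against 45 and 37 with TMM and 43 and 40 with DESeq2. The median end changed by 0.36 on that scale, by 0.21 after TMM scaling and by -0.02 with DESeq2, and the MGYKLT end lay below the median end under each. Without MP 1 and MP 5 it fell by 0.51, with an edgeR adjusted p of 0.00192.

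In rank, the MGYKLT end stood between 16 and 19 among the ends of each Naive and MP library. Among 3 other J-segment ends set beside it, the share of reads was higher in MP than in Naive for each. ANTGKLT had a mean of 1.57% in Naive and 5.89% in MP, YAQGLT 3.62% and 5.29%, and GNYKYV 2.54% and 4.16%. As a share of distinct loops in place of reads, no difference passed the test. Of the distinct CDR3s of a library, 2.12% ± 0.110 (SD, n = 5) in Naive and 2.18% ± 0.231 (SD, n = 5) in MP ended in MGYKLT. The difference of 0.0611 percentage points had an adjusted p of 0.667 in an exact two-sided permutation test, adjusted over 109 ends.

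**Figure D1:**
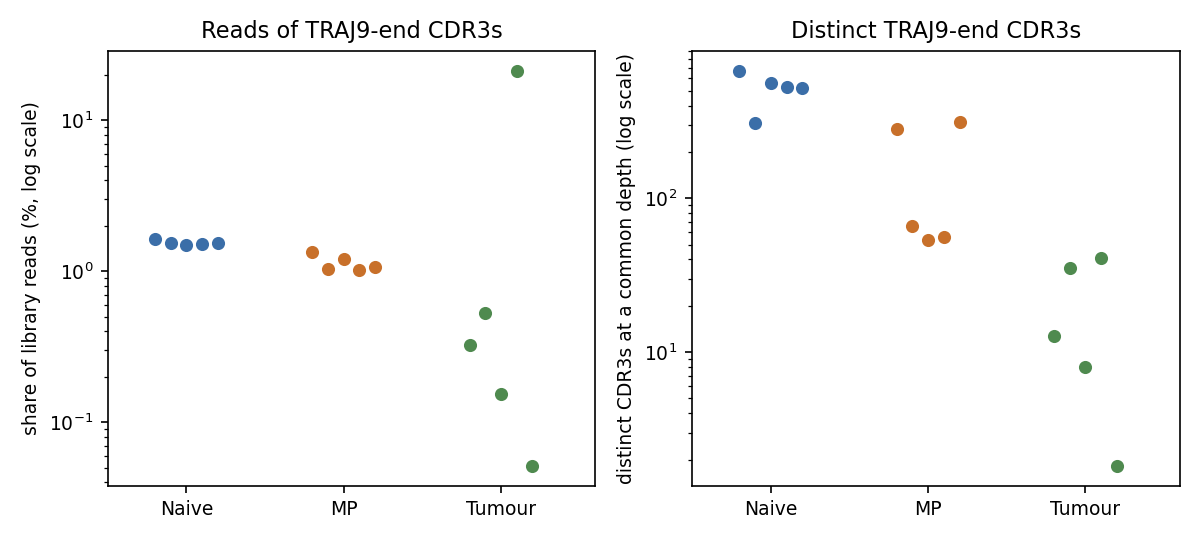
Share of library reads (left, percent, log scale) and number of distinct CDR3s at a common depth (right, log scale) for CDR3s ending in MGYKLT. Points are libraries, 5 for each group. All MP points lie below all Naive points on the left, MP 1 and MP 5 are the upper pair of MP points on the right, and Tumour 4 stands at 21.4% of reads.

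The tumours held few TRAJ9-end CDR3s, and in 4 of 5 they took at most 0.526% of reads. Tumours 1 to 5 had shares of 0.325, 0.526, 0.154, 21.4 and 0.0513%. Tumour 4 was above every Naive and MP library, and the other 4 tumours were below every one of them. Without Tumour 4 the mean was 0.264% ± 0.208 (SD, n = 4). The end ranked 27, 26, 36, 1 and 40 among the ends of Tumours 1 to 5.

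Because the tumours split in this way, the direction of their mean rests on Tumour 4. With all 5 tumours, the end was 1.98 ± 1.36 (SE) higher on the log2 scale than in MP, with an edgeR adjusted p of 0.290, and 1.54 ± 1.41 higher than in Naive, with an edgeR adjusted p of 0.452. Neither difference passed the threshold. Of the ends tested, 9.71% were higher and 34% lower in tumours than in MP, and 5.26% were higher and 19.7% lower than in Naive. These splits depend on the scaling: against Naive there were 4 higher and 15 lower ends of 76, but 14 and 13 with TMM and 25 and 15 with DESeq2. Against MP there were 10 higher and 35 lower of 103, but 12 and 30 with TMM and 25 and 31 with DESeq2. Without Tumour 4, the end fell by 2.10 against MP, with an edgeR adjusted p of 0.0243, and by 2.55 against Naive, with an edgeR adjusted p of 0.0122. These comparisons share the Tumour libraries and are not independent. The median end changed by -1.21 against MP and by -0.62 against Naive, and both medians turned positive with DESeq2, at 0.62 and 0.66.

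The number of different TRAJ9 loops was largest in Naive libraries and smallest in tumours, as was the number of all CDR3s. Naive libraries 1 to 5 listed 684, 310, 564, 525 and 524, MP libraries 289, 67, 54, 56 and 317, and Tumour libraries 13, 36, 8, 42 and 2. At a common depth of 547665 reads, the expected numbers were 519 ± 133 (SD, n = 5) in Naive, 154 ± 132 in MP and 19.8 ± 17.4 in tumours. MP 5 held more than Naive 2, which listed fewest of the Naive libraries, so the Naive and MP ranges overlap. MP 2, MP 3 and MP 4 held 53.4 to 66.1 each at that depth. Counts of at most 9 reads carried much of the difference: with CDR3s under 10 reads left out, the numbers were 138 ± 18.7 in Naive and 78.4 ± 61.5 in MP. Whatever their end, the CDR3s listed per library had a mean number of 24443 (Naive), 6979 (MP) and 1512 (Tumour). TRAJ9 loops made up a mean of 2.12% (Naive), 2.18% (MP) and 1.21% (Tumour) of these lists. The decline in their number is thus not shown to be particular to TRAJ9 loops.

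How evenly the reads were spread over these loops differed too. The effective number of CDR3s, which counts equally abundant loops that would give the same diversity, was 69.3 to 114 in Naive libraries, 19.0 to 69.0 in MP and 1.03 to 11.4 in tumours. The 10 most abundant CDR3s took 47.2 to 52.1% of the TRAJ9-end reads in Naive, 48.6 to 73.0% in MP and 89.4 to 100% in tumours. MP 1 and MP 5 lay nearest to the Naive libraries on both measures.

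**Figure D2:**
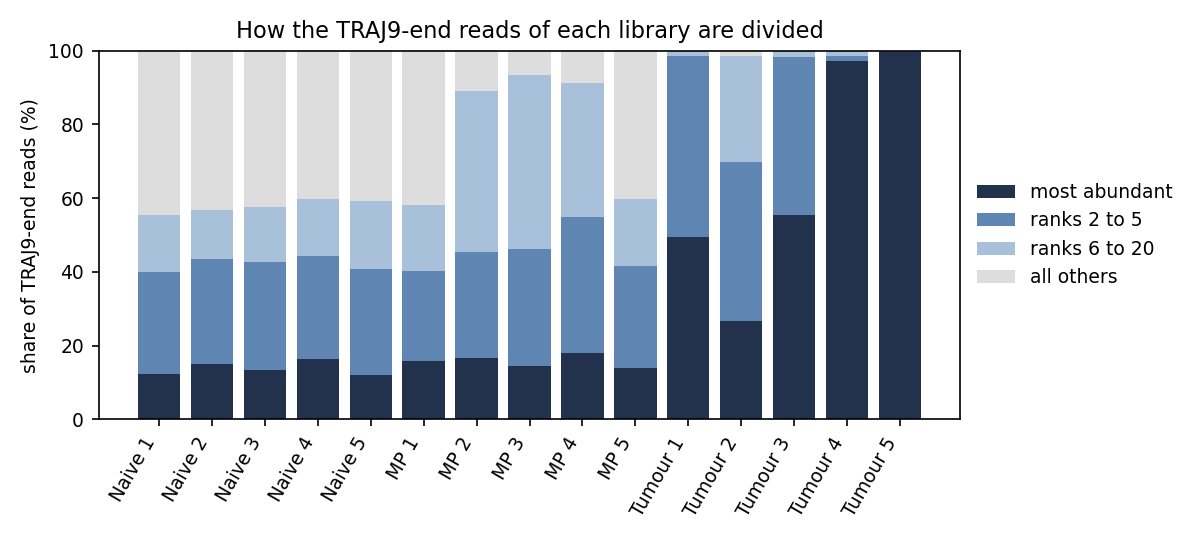
Division of TRAJ9-end reads in each of the 15 libraries (percent, bars from 0 to 100) into the most abundant CDR3, ranks 2 to 5, ranks 6 to 20 and all others. The others make up 40.3 to 44.4% of the bar in Naive libraries and at most 1.54% in tumours.

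The Naive libraries shared their main TRAJ9 loops. Of 1597 CDR3s listed in Naive cells, 91 were in all 5 libraries, and these took 71.5% ± 1.12 (SD, n = 5) of the TRAJ9-end reads. Of 626 listed in MP cells, 8 were in all 5 libraries and took 43.5% ± 5.95. In tumours, 97 of 99, or 98.0%, were in 1 tumour alone, and AGSNMGYKLT and AGGNMGYKLT were in 2 each. The 97 include 22 that differed by 1 residue from ATASSNMGYKLT, the most abundant tumour loop, and 5 that differed by 2. Whether such variants are reading errors was not tested. Over all CDR3s whatever their end, 6.00% of the Naive list and 1.90% of the MP list were in all 5 libraries, close to the 5.70% and 1.28% seen here. Of the tumour list over all CDR3s, 85.9% were in 1 tumour, 8.77% in 2 and 1.14% in all 5.

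Similarity of the read profiles followed the same order. The Morisita-Horn index reaches 1 for identical profiles and had a mean of 0.967 over the 10 pairs of Naive libraries, 0.692 over the 10 MP pairs and 0.0145 over the 10 Tumour pairs. Between Naive and MP libraries it was 0.179. The lists overlapped by 247 CDR3s, 15.5% of the Naive list and 39.5% of the MP list. No CDR3 ending in MGYKLT was in all 15 libraries, and 11 were listed in all 3 groups. Overlap between groups was not counted over all CDR3s, so these values are not shown to be particular to TRAJ9 loops.

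The 3 loops with most Naive reads had 12 residues and a glutamate, and 2 of them were nearly missing from MP cells. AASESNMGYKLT took 0.183, 0.233, 0.202, 0.247 and 0.186% of reads in Naive libraries 1 to 5, and 9 reads of MP 5 were the only ones in MP. Every Naive library was above every MP library. The fitted log2 change was -9.54 ± 1.72 (SE), with an edgeR adjusted p of 0.00113, on 1 MP library with reads. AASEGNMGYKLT took 0.115 to 0.128% of Naive reads, and in MP it appeared in library 5 alone, at 0.00205%. Its change was -8.12 ± 1.79 on the log2 scale, with an edgeR adjusted p of 0.00330. With 9 and 14 reads in MP 5 alone, both met the filter of 10 reads in 3 libraries through Naive cells. Their calls follow largely from that filter. The family to which both belong, defined like the others below after values were seen as AASE followed by any residue and NMGYKLT, had 7 CDR3s with a summed 0.337% ± 0.0287 (SD, n = 5) of Naive reads and 0.000672% of MP reads.

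The remaining loop of these 3 was also abundant in MP cells. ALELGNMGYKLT took 0.201, 0.228, 0.181, 0.164 and 0.179% of Naive reads and 0.0649, 0.0782, 0.147, 0.0987 and 0.0333% of MP reads, and it was in all 10 of these libraries. Its MP libraries all lay below its Naive libraries, yet the change of -1.17 ± 0.49 (SE) on the log2 scale did not pass the threshold, with an edgeR adjusted p of 0.0590. The values stand close to the threshold: without MP 3 the change was -1.47, with an edgeR adjusted p of 0.0202. Of the 20 loops with A, L or I, E, any residue and GNMGYKLT, all were listed in Naive cells and 6 in MP, with a summed 0.287% ± 0.0439 (SD, n = 5) of Naive and 0.109% ± 0.0665 of MP reads. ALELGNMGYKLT gave most of the MP reads. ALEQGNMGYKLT, with 0.0181 to 0.0425% of Naive reads, was unlisted in all 5 MP libraries and so at least 63.8-fold lower. AIEGGNMGYKLT, with 0.0105 to 0.0258%, was unlisted there too and at least 43.9-fold lower. Both passed the filter through Naive cells alone, so their calls as lower follow from that filter.

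The remaining CDR3s among the 10 with most Naive reads also lay low in MP. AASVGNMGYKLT took 0.0477 to 0.0991% of Naive reads and had 2 reads in MP 3. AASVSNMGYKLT, 1 residue different, took 0.0414 to 0.0830% of Naive reads and 0.0146% of MP 3. Its log2 change of -4.35 ± 1.85 (SE) did not pass the threshold, with an edgeR adjusted p of 0.0647, and without MP 3 it was -8.92, with an edgeR adjusted p of 0.000827. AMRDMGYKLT had 0.0244% of Naive reads, and its only MP reads were 0.00102% of library 5, with an edgeR adjusted p of 0.00526. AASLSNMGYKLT and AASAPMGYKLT, with 0.0196% and 0.0155% of Naive reads, were unlisted in MP and at least 44.7-fold and 35.5-fold lower. None of the loops of this paragraph reached 10 reads in 3 MP libraries, so they passed the filter on low counts through Naive cells. Any call of them as lower follows largely from that filter.

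The loops that led the MP libraries were rare in Naive cells. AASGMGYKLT, in which 4 residues precede the end, took 0.172, 0.174, 0.176, 0.183 and 0.149% of reads in MP libraries 1 to 5. It was also in every Naive library, at 0.00267 to 0.00470%, and the groups did not overlap. It was 45.6-fold higher in MP by mean share, a log2 change of 5.50 ± 0.51 (SE) with an edgeR adjusted p of 0.000295. The spread between MP libraries was small beside this: the SD was 0.0130% on a mean of 0.171%.

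Loops with tryptophan formed a further MP family. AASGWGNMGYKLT had 1876, 341, 469, 986 and 971 reads in MP libraries 1 to 5, a mean share of 0.129%, and was listed in Naive 1 alone, at 0.000854%. Every MP library was above every Naive library, and the log2 change was 9.35 ± 1.61 (SE), with an edgeR adjusted p of 0.000916. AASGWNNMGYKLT was in MP 1, MP 3 and MP 4 at 0.0231, 0.0606 and 0.0209%, and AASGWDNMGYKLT reached 0.0317% in MP 4. Both were unlisted in Naive cells. By mean share the first was at least 41.7-fold and the second at least 18.4-fold above the Naive floor. Both passed the filter on low counts through MP alone, so their calls follow from that filter. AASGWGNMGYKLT, with 6 reads in Naive 1, also passed it through MP alone, and the same limit holds for its call. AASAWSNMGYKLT, with 2 reads in Naive 3, passed it through MP alone too. It was in 3 MP libraries, with an edgeR adjusted p of 0.0277. That call ended when any of 4 Naive libraries was left out, with an edgeR adjusted p of up to 0.0647. AAS, any residue, W, any residue and NMGYKLT had together 0.170% ± 0.0758 (SD, n = 5) of MP reads and 0.000614% of Naive reads.

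The other 6 MP calls were loops of 10 residues or fewer or loops with serine before the asparagine. AMGYKLT, the shortest, took 0.0604, 0.0310, 0.0181, 0.0369 and 0.0288% of MP reads and had 4 and 2 reads in 2 Naive libraries, with an edgeR adjusted p of 0.00139. APTSNMGYKLT took 0.00766 to 0.0517% of MP reads and had 2 reads in each of 3 Naive libraries, with an edgeR adjusted p of 0.000882. AGSNMGYKLT took 0.00906 to 0.0407% and was listed in Naive 5 alone, with 7 reads, with an edgeR adjusted p of 0.00577. AGGNMGYKLT, AVYNMGYKLT and AAKTSNMGYKLT were also called higher. They lie outside the naming rule, as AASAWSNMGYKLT and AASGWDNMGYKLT do, and these 5 were named after their values were seen. None of the 6 loops of this paragraph reached 10 reads in any Naive library. Each passed the filter on low counts through MP alone, so its call follows from that filter.

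Other abundant MP loops had most of their MP reads in 1 library. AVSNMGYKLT took 0.0902% of MP 5 and at most 0.0218% of any other MP library. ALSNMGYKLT took 0.0880% of MP 2 and 0.0175% of MP 1 and was unlisted in MP 3, MP 4 and MP 5. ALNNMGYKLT took 0.0859% of MP 3 and otherwise appeared only in MP 5. Of these, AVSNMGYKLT and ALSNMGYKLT had edgeR adjusted p-values of 0.116 and 0.321 against Naive, and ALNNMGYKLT did not pass the filter on low counts.

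Over the whole set, 112 of 2045 CDR3s passed that filter of at least 10 reads in at least 3 of the 10 libraries. Of these, 11 were called higher in MP, where 12.6% of all 5954 CDR3s tested were, and 57 were lower, where 48.1% of all were. The shares of 112 are near those backgrounds, and the median log2 change was -4.21 against -3.35 over all CDR3s tested. A CDR3 that passed only through the group where it was abundant had to differ, so these counts describe the filtered set and not all members. Of the 11 higher ones, 4 were unlisted in every Naive library. The 11 higher CDR3s took 0.448% ± 0.0962 (SD, n = 5) of MP reads and 0.00474% of Naive reads. The 57 lower ones took 0.735% ± 0.0305 (SD, n = 5) of Naive reads against 0.00172% in MP. No MP library listed any of 45 of these. All MP libraries lay above all Naive libraries for 6 CDR3s, where 5.39% of all tested did, and below them for 57, where 39.9% did. Without MP 1 and MP 5, an alternative chosen after the data were seen, 7 were higher and 70 lower of 92, beside 356 higher and 3436 lower of all 4867 tested.

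**Figure D3:**
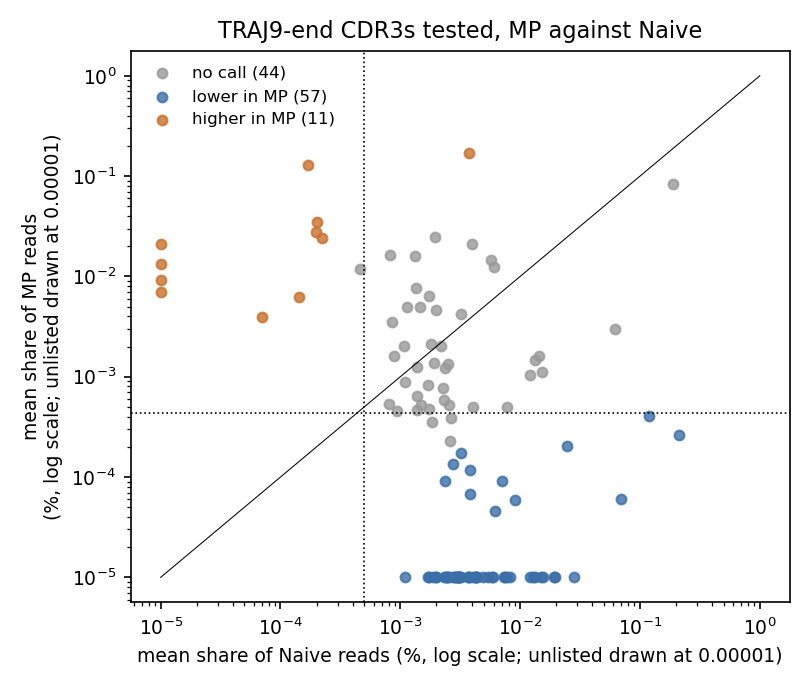
Mean share of Naive reads against mean share of MP reads (percent, both axes log) for the 112 TRAJ9-end CDR3s tested. Each point is 1 CDR3, unlisted ones are drawn at 0.00001%, dotted lines mark the mean share worth 3 reads and the diagonal marks equal shares. The 57 called lower in MP lie below the diagonal and the 11 called higher lie above the diagonal.

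What the loops share to the left of the fixed end was then described by residue and by length. These features were chosen after values were seen and are given without a test. Asparagine directly before the end was carried by 80.6% ± 0.646 (SD, n = 5) of TRAJ9-end reads in Naive and 66.2% ± 4.17 in MP. Glycine stood there in 2.95% ± 0.475 of Naive reads and 17.2% ± 1.84 of MP reads, to which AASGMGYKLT gave most. Naive and MP libraries did not overlap for either residue. Counted per distinct CDR3 in place of reads, asparagine was at 65.4% and 63.5%, and glycine at 4.87% and 7.99%.

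Glutamate was more frequent in the Naive reads and tryptophan in the MP reads. Glutamate was in 46.3, 53.2, 48.1, 46.6 and 47.5% of TRAJ9-end reads in Naive libraries 1 to 5 and in 14.5, 26.1, 25.6, 14.4 and 12.1% in MP libraries 1 to 5. Every Naive value was above every MP value. Over all reads whatever their end, glutamate was in 16.8% of Naive and 11.5% of MP reads. Tryptophan was in 0.898 to 1.57% of TRAJ9-end reads in Naive and in 21.6, 6.82, 12.5, 25.8 and 17.0% in MP libraries 1 to 5. Over all reads it was in 4.95% and 5.09%, so the contrast was seen in the TRAJ9-end reads and not in the whole library. Per distinct CDR3 the contrasts were smaller, at 24.4% and 19.6% for glutamate and 2.79% and 8.33% for tryptophan.

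Loop length differed in the same libraries. Loops of 12 residues took 65.7 to 71.2% of TRAJ9-end reads in Naive and 18.8 to 34.6% in MP. Loops of 10 residues or fewer took 12.6% ± 0.866 (SD, n = 5) in Naive and 38.5% ± 5.69 in MP, and loops of 13 residues 3.42% ± 0.738 and 17.1% ± 6.10. MP reads thus lay on both sides of the length that led in Naive cells. The mean length was 11.6 residues in Naive and 11.1 in MP, against 11.2 and 10.9 over all reads. These shares rest on the few abundant loops named above: per distinct CDR3, 12 residues were found in 38.9% and 31.2%.

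**Figure D4:**
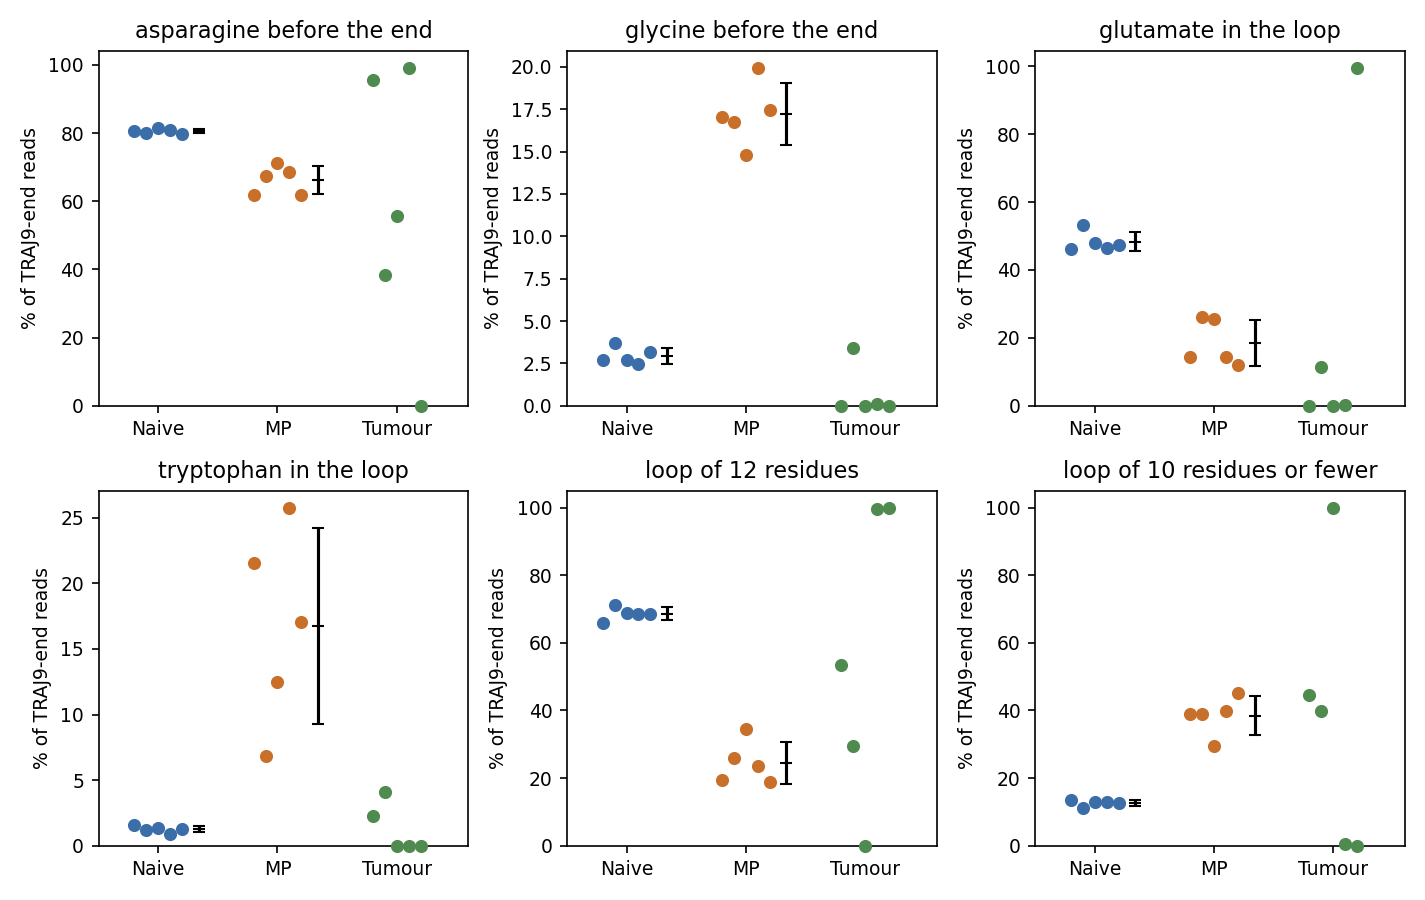
Share of TRAJ9-end reads (percent) with each of 6 features, by library. Points are libraries, and bars beside the Naive and MP points are mean ± SD of 5. Naive and MP points do not overlap in any of the 6 panels, while the Tumour points range from 0 to 100% in the panels for length.

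How much of the TRAJ9 end was kept changed the comparison of reads. CDR3s ending in GYKLT but with another residue in place of M are outside the set, and 234 such peptides were listed. They took 0.0521, 0.0436, 0.0390, 0.0362 and 0.0407% of reads in Naive libraries 1 to 5 and 0.319, 0.280, 0.351, 0.337 and 0.275% in MP libraries 1 to 5. The groups did not overlap, in the direction opposite to that of the full 6 residues. ALVGYKLT, at 0.122% ± 0.0182 (SD, n = 5), and ALGYKLT, at 0.103% ± 0.0123, made up most of the MP reads, and both were in all 5 MP libraries. With asparagine before the end as well, NMGYKLT loops took 1.24% ± 0.0404 of Naive and 0.749% ± 0.0889 of MP reads.

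The tests followed these shares. For ends of 7 residues, NMGYKLT fell by 0.73 ± 0.11 (SE) on the log2 scale in MP against Naive, with an edgeR adjusted p of 0.000171. For ends of 5 residues, GYKLT changed by -0.13 ± 0.12, with an edgeR adjusted p of 0.317. The shares were 1.59% ± 0.0586 (SD, n = 5) and 1.45% ± 0.153, and the ranges of the groups overlapped. Loops that ended in MGYKLT with a residue other than N before it took 0.300% ± 0.0163 (SD, n = 5) of Naive and 0.384% ± 0.0775 of MP reads, and every MP library lay above every Naive library. The larger Naive share of the whole set was thus found in its NMGYKLT loops. Loops that kept MGYKLT without the N, or GYKLT without the M, had the larger share in MP.

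**Figure D5:**
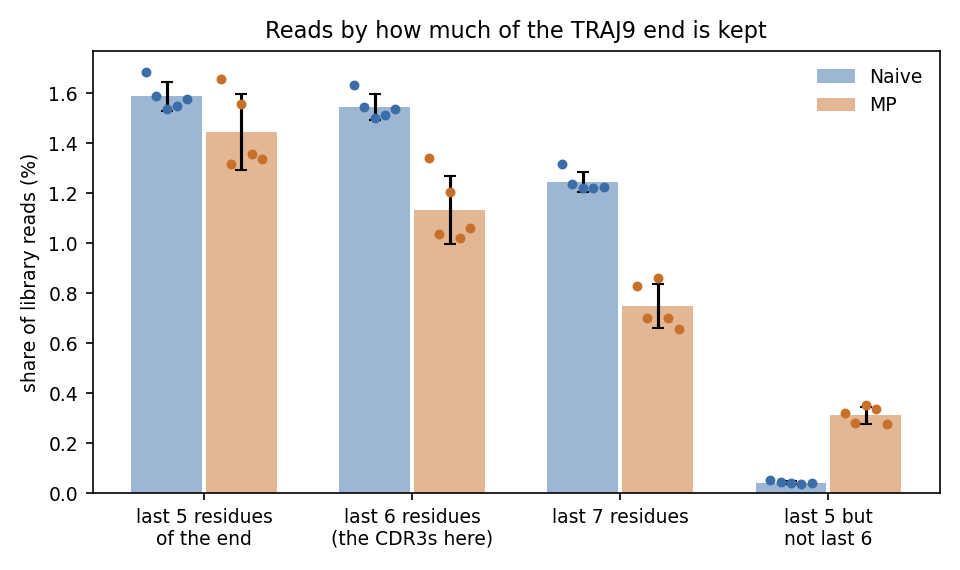
Share of library reads (percent) of CDR3s that keep the last 5, 6 or 7 residues of the TRAJ9 end, and of those that keep the last 5 but not the last 6, in Naive and MP libraries. Bars are means, error bars SD, points the 5 libraries of each group. The Naive bar is higher for 5, 6 and 7 residues, with overlapping points for 5, and the MP bar is higher for the last 5 without the last 6.

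In tumours, TRAJ9 loops were mostly listed in 1 library. Of 99 CDR3s, 69 were listed in neither Naive nor MP cells, 26 were listed in Naive and 15 in MP. The same overlap was not counted over all tumour CDR3s, so it is not shown to be particular to TRAJ9 loops. Among the 99, 22 differed by 1 residue from ATASSNMGYKLT, the most abundant tumour loop. Only 1 of these 22 was listed in Naive or MP cells. Whether such variants are reading errors was not tested, and the 69 include them. Each tumour was led by a different loop. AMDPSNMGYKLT had 1200 reads in Tumour 1, 0.161% of that library, and up to 0.00209% in 3 Naive libraries. ATDAGHMGYKLT had 1096 reads in Tumour 2 and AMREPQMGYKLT 482 reads in Tumour 5, and neither was listed in the other 14 libraries. In Tumour 5 there was 1 other TRAJ9-end CDR3, so that a single loop with glutamate gave 99.6% of its TRAJ9-end reads.

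The loop of Tumour 4 was of another order. ATASSNMGYKLT had 170040 reads there, 20.8% of the library (95% Wilson interval 20.7 to 20.9%, counting error only), and was unlisted in the other 14 libraries. With the most abundant TRAJ9-end CDR3 of every library left out, the end was 2.01 lower on the log2 scale in tumours than in MP, with an edgeR adjusted p of 0.190, and 2.49 lower than in Naive, with an edgeR adjusted p of 0.122. Around it, 22 other members differed from it by 1 residue and had 3345 reads, 1.97% of its own. They included ATAPSNMGYKLT at 0.101%, ATASSSMGYKLT at 0.0696% and ATASSDMGYKLT at 0.0635% of the library.

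The substitutions were unevenly placed along this loop. At positions 1 to 6, counted from the first residue listed, there were 4, 4, 0, 3, 3 and 8 variant peptides. At position 7, the M of the end, there were 3 with 13 reads, and at positions 8 to 12 there were none. Only 1 of the 22 was listed in Naive or MP cells. The share of TRAJ9-end CDR3s that stood 1 residue from one at least 100 times more abundant was 69.0% in Tumour 4, 12.5, 27.8 and 30.8% in Tumours 3, 2 and 1, 50% in Tumour 5 on 2 CDR3s, 4.53 to 6.13% in Naive and 2.77 to 31.5% in MP libraries. This share depends on the reads of the leading loop, 170040 in Tumour 4, 1163 to 1410 in Naive and 1016 to 1876 in MP libraries. Below a leader with more reads, variants with more reads still meet the factor of 100, so the shares are not like for like. Whether the 1-residue variants are reading errors or separate cells was not tested. The other 14 members of Tumour 4 further away had 1260 reads, 0.154% of the library, within the range of the shares of the other tumours.

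Some loops of MP cells were found in tumours. AGSNMGYKLT, in all 5 MP libraries, took 0.0383% of Tumour 2 and 0.0853% of Tumour 3, which it led, and was unlisted in the other 3 tumours. Its mean in tumours and in MP differed by 0.03 ± 2.09 (SE) on the log2 scale, with an edgeR adjusted p of 0.993. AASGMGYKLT, the leading MP loop, had 191 reads in Tumour 4, 0.0234%, and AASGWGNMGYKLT had 117 reads in Tumour 2, 0.0150%. AGGNMGYKLT was in Tumour 1 and Tumour 2. These loops were also listed in Naive cells, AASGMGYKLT in 5 libraries and each of the others in 1. Of the whole tumour list, 26 CDR3s were listed in Naive and 15 in MP, whose lists held 1597 and 626. They took a mean of 34.3% ± 31.7 (SD, n = 5) and 20.8% ± 23.2 of the TRAJ9-end reads of tumours. The loops that led in Naive cells, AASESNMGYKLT, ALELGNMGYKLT and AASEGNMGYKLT, were unlisted in all 5 tumours.

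In the test of single CDR3s, no TRAJ9 loop was called higher in tumours. Against MP, 18 passed the filter, 0 were higher and 12 were lower, where 7.68% and 66% of all 1666 CDR3s tested were. Against Naive, 81 passed, 0 were higher and 76 were lower, where 3.38% and 86.7% of all 4671 were. The count of higher CDR3s was also 0 at an unadjusted edgeR p under 0.05 and with DESeq2 in both comparisons. The leading tumour loops were each in 1 tumour and so could not pass a filter that asks for 3 libraries. All 12 and all 76 lower CDR3s were unlisted in every tumour, so each passed the filter through the other group alone and its call follows from that filter. Ranges did not overlap for 0 higher and 6 lower CDR3s against MP, where 3% and 21.4% of all tested did not, and for 0 and 64 against Naive, where 0.985% and 66.9% did not. The medians were -8.63 and -7.69 on the log2 scale, against -7.57 and -7.42 over all CDR3s tested. Without MP 1 and MP 5, 4 of 9 were lower against MP, beside 225 of all 642 tested.

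Among the CDR3s lower in tumours, those with most reads in the other groups were named. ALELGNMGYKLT was at least 216-fold lower than in MP and at least 488-fold lower than in Naive. AMGYKLT and APTSNMGYKLT were at least 89.8-fold and 71.3-fold lower than in MP. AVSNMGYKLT and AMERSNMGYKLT were at least 64.0-fold and 42.1-fold lower than in MP. The bounds of both rest on means that MP 5, for the first, and MP 2 and MP 3, for the second, dominated. Against Naive, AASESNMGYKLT, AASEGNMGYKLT, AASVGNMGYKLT and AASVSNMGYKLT were at least 540-fold, 305-fold, 180-fold and 159-fold lower.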

How the data were processed

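TCR alpha CDR3 peptides were measured in 15 libraries. The values are counts of reads per peptide as the authors deposited them, without normalization. Per the labels' protocols, RNA of sorted cells was amplified by arm-PCR, a multiplex RT-PCR. No aligner, CDR3 caller, error filter or molecular identifier is named there, so intervals and floors cover counting error only, and an unlisted CDR3 had fewer than 2 reads unless an unstated filter removed it.

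The members and lists were chosen with earlier results of these data known. Calls used edgeR 4.0.16 (limma 3.58.1, R 4.3.3), a robust quasi-likelihood test with total reads as library size, each pair of groups fitted alone. CDR3s needed 10 reads in 3 libraries and 6-residue ends 100 reads in 3, and Benjamini-Hochberg adjusted p under 0.05 ran over all of them. Folds against an unlisted group were set against 3 reads per library. Alternatives were TMM, DESeq2 1.42.0, other filters (no filter means 1 read in 2 libraries), thinning, ends of 5 or 7 residues, rare, leading or possibly misread CDR3s left out or folded, exact permutation tests, a replicate block and single libraries left out. Scripts were tested on simulated data. Named were the 10 CDR3s of highest mean share in each group, the 5 called each way with the highest share, and the leader of each library. The series' design text gives 5 mice for the Naive and MP cells and 5 others for the tumours, but nothing states whether Naive and MP libraries of 1 number share a mouse, and they were treated as unpaired. Other values used python 3.11.15, pandas 2.3.3 and scipy 1.17.1.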

Additional observations from a re-analysis of the deposited data

Results flagged for a closer look

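Values were looked at again where 1 library lay far from the other 4 of its group, by Dixon's test at the 95% level. Chance does this in about 1 of 20 groups. In Tumour 4 the share of reads ending MGYKLT was 21.4%, and ATASSNMGYKLT took 20.8%. Its 1-residue variants ATAPSNMGYKLT, ATASSSMGYKLT and ATASSDMGYKLT took 0.101, 0.0696 and 0.0635% there. In Tumour 1, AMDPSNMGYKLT took 0.161% and ARRNMGYKLT 0.101%. In Tumour 2, ATDAGHMGYKLT took 0.141%, APHMGYKLT 0.0667% and ATDQSSNMGYKLT 0.0642%. Loops listed in 1 tumour alone meet this test by their construction. In Tumour 5, 99.6% of TRAJ9-end reads held glutamate.

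In MP cells, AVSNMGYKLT took 0.0902% of MP 5, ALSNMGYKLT 0.0880% of MP 2 and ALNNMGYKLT 0.0859% of MP 3, each far above the other 4 MP libraries. In Naive cells, glutamate was in 53.2% of the TRAJ9-end reads of Naive 2, the Naive library with the fewest distinct TRAJ9-end CDR3s, and in 46.3 to 48.1% of the others.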

How the results depend on the processing

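The fall of the MGYKLT end in MP kept its direction under every setting run on reads, from -0.83 with DESeq2 to -0.13 with ends of 5 residues. It passed the threshold except with no filter (-0.45, edgeR adjusted p 0.0521) and with ends of 5 residues (adjusted p 0.317). As a share of distinct CDR3s the difference was 0.0611 points the other way. Leaving out 1 library gave -0.51 to -0.41. The rise of the end in tumours turned to a fall of -2.10 against MP and -2.55 against Naive without Tumour 4 (leave-one-out ranges -2.10 to 2.30 and -2.55 to 1.86). It also turned with leading CDR3s left out (-2.01 and -2.49) and as a share of distinct CDR3s (-0.972 and -0.910 points). DESeq2 gave no adjusted p for the end in tumours. Beyond the libraries or CDR3s left out, the cause was not tested.

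Counts of called CDR3s moved with the filter. With at least 50 reads, 7 were higher and 18 lower in MP of 32 tested, beside 438 and 846 of all 1742. In tumours, 6 of 10 were lower than in MP, beside 494 of all 813. Against Naive, 22 of 23 were lower in tumours, beside 1069 of all 1341. With no filter, 42 were higher and 319 lower in MP of 634, beside 2289 and 14848 of all 28731. In tumours, 83 of 111 were then lower than in MP, beside 4670 of all 6978. Against Naive, 485 of 511 were lower, beside 21912 of all 24277. Leaving out MP 1 and MP 5 gave 7 higher in MP of 92 tested, beside 356 of all 4867. It gave 4 of 9 lower in tumours than in MP, beside 225 of all 642. Leaving out 1 library gave 9 to 12 higher and 46 to 65 lower in MP of 93 to 111 tested. Over all CDR3s these fits gave 517 to 739 higher and 2182 to 3080 lower of 5090 to 5822. In tumours, 8 to 15 of 13 to 18 were lower than in MP, beside 572 to 1210 of 1048 to 1633 over all. Against Naive, 58 to 78 of 62 to 81 were lower, beside 3182 to 4182 of 3769 to 4634 over all. Distinct CDR3s at a common depth then ranged from 480 to 572 in Naive, 114 to 180 in MP and 14.5 to 24.3 in tumours, and with CDR3s under 10 reads left out they were 138.2, 78.4 and 11.4. With possibly misread CDR3s folded into their neighbours they were 492, 141 and 11.1, and Tumour 4 had 12.8 in place of 41.2.

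With the library number as a replicate block, the end changed by -0.45 in MP, -1.74 in tumours against MP and -2.15 against Naive. With it, 6 of 18 CDR3s were lower in tumours than in MP, beside 265 of all 1666. The tumours came from other mice, so their numbers match the other groups by label alone. The block has no meaning in the design for any tumour comparison below. Deviations of Naive and MP libraries of 1 number correlated at 0.012 to 0.047 over 5954 CDR3s, and those of different numbers at -0.051 to 0.034. The same number gave the highest value for 4 of 5 MP libraries, a hint from the data and not the design, and the fits were left unpaired. With the block, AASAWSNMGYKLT lost its call in MP (edgeR adjusted p 0.0771). Against MP, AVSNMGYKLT, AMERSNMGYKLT, AAKTSNMGYKLT, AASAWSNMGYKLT, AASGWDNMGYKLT and AVYNMGYKLT lost theirs in tumours (0.0560 to 0.0812). Of 51 results on named CDR3s, 33 kept their call in every alternative in which they were tested, and some were not tested in all. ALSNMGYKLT in MP turned to -3.36 with the block. AGSNMGYKLT in tumours against MP turned to -0.94 with TMM, -0.29 with DESeq2, -7.14 with the block, -0.15 without MP 1 and MP 5, and -1.34 to 0.35 with 1 library left out. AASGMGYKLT in tumours against Naive turned to -0.80 with TMM, -6.41 with the block and -7.67 without Tumour 4 (-7.67 to 0.64 with 1 library left out). The lowest listed count, 2 reads, limits what can be seen of rare loops.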

Other observations

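In tumours some TRAJ9-end CDR3s were ones that Naive cells also held and that at most 1 MP library listed. The Naive list is the longer, at 1597 CDR3s against 626 in MP, so such cases do not compare the 2 groups. Tumour 4 held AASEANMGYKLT, which was in all 5 Naive libraries and in no MP library, with 150 reads, 0.0183% of that tumour. It belongs to the family of AASE, any residue and NMGYKLT that led in Naive cells. Tumour 4 also held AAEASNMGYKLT with 300 reads and AFNMGYKLT with 448, listed in 3 and 2 Naive libraries and in no MP library. Tumour 1 held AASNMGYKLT with 316 reads, which was in 4 Naive libraries and 1 MP library.

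Tumour 3 held a small set of loops in which tyrosine stands before the end. VLSYMGYKLT had 331 reads, VLGYMGYKLT 42, VSSYMGYKLT 20 and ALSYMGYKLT 19, and of these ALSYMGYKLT alone was listed outside Tumour 3, in 1 Naive library. These CDR3s were singled out after their values were seen.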
